A study of Mus musculus with 18 samples.

Results

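A set of 9 genes listed as mature neutrophil genes was followed across all libraries of a mouse spleen RNA-seq study: S100a8, S100a9, Csf3r, Cxcr2, Clec4d, Stfa2l1, Retnlg, Mmp8 and Mmp9. The name is that of the list. S100a8, S100a9, Retnlg and Mmp8, and Mmp9 by rank only, also varied with genes of neutrophil precursors, as described further on. The 9 genes were taken by their symbols from an expression table of 19326 rows, and each symbol matched 1 row. The spleens came from ICR mice aged 10 weeks, with 3 libraries in each of 6 groups, and all groups share that strain, tissue and age. The groups were AOS (10 mg/kg AOS, read here as alginate oligosaccharide), HFD (a high fat diet), HFD+AOS (the diet with 10 mg/kg AOS), HFD+AOS-FMT (the diet with FMT, taken to mean transfer of faecal microbiota, here from donors given 10 mg/kg AOS), HFD+control-FMT (the diet with FMT from control donors) and control. The study's title asks of AOS-FMT whether it can counter what the diet does to the spleen. A library is named by its group and its replicate number, as in control 1.

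Neutrophils are short-lived granulocytes that mature in the bone marrow, leave it for the blood, and pass through or stay in the spleen. Csf3r is the receptor for the growth factor G-CSF, which drives their production and release, and Cxcr2 is the chemokine receptor that draws mature cells out of the marrow and towards sites of injury. S100a8 and S100a9 form calprotectin, which fills much of the neutrophil cytosol, while the collagenase Mmp8 and the gelatinase Mmp9 are stored in granules. Retnlg is a resistin-like secreted protein of mouse neutrophils, Stfa2l1 belongs to the stefin A family of cathepsin inhibitors, and Clec4d is a C-type lectin receptor of myeloid cells.

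Values were read as FPKM, read fragments scaled by transcript length and library size, from their behaviour in the table. The depth of the libraries is unknown, so no counting error is given for single values. Differences are given as log2 fold changes of FPKM + 1 from limma, which understate the change of genes with low values, and a gene is called when its p-value, after Benjamini-Hochberg adjustment over the 12969 genes tested, is under 0.05. All 9 genes passed the filter, which asked for a group mean of 1 FPKM or more in any group. Genes that define the spleen were present in every library: the B cell gene Cd79b stood at 330 to 616 FPKM and Spic, the transcription factor of red pulp macrophages, at 36.2 to 75.2 FPKM. In whole spleen, fewer neutrophils and less RNA of these genes per neutrophil cannot be told apart. Nothing in the labels ties each library to its own animal, so p-values measure only the spread between these libraries.

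Each of the 9 genes was lower on average in all 5 treated groups than in the control group, but the control libraries differed widely among themselves. The mean of the 9 genes on the log2(FPKM + 1) scale lay between 3.41 and 4.20 in the 15 libraries of the treated groups, against 6.74 in control 1, 5.30 in control 2 and 4.0 in control 3. Control 1 and control 2 thus stood above all 15 treated libraries for every one of the 9 genes. Control 3 ranked 5 among the 18 libraries by this mean, behind AOS 2 and HFD 2 as well as the other control libraries.

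**Figure D1:**
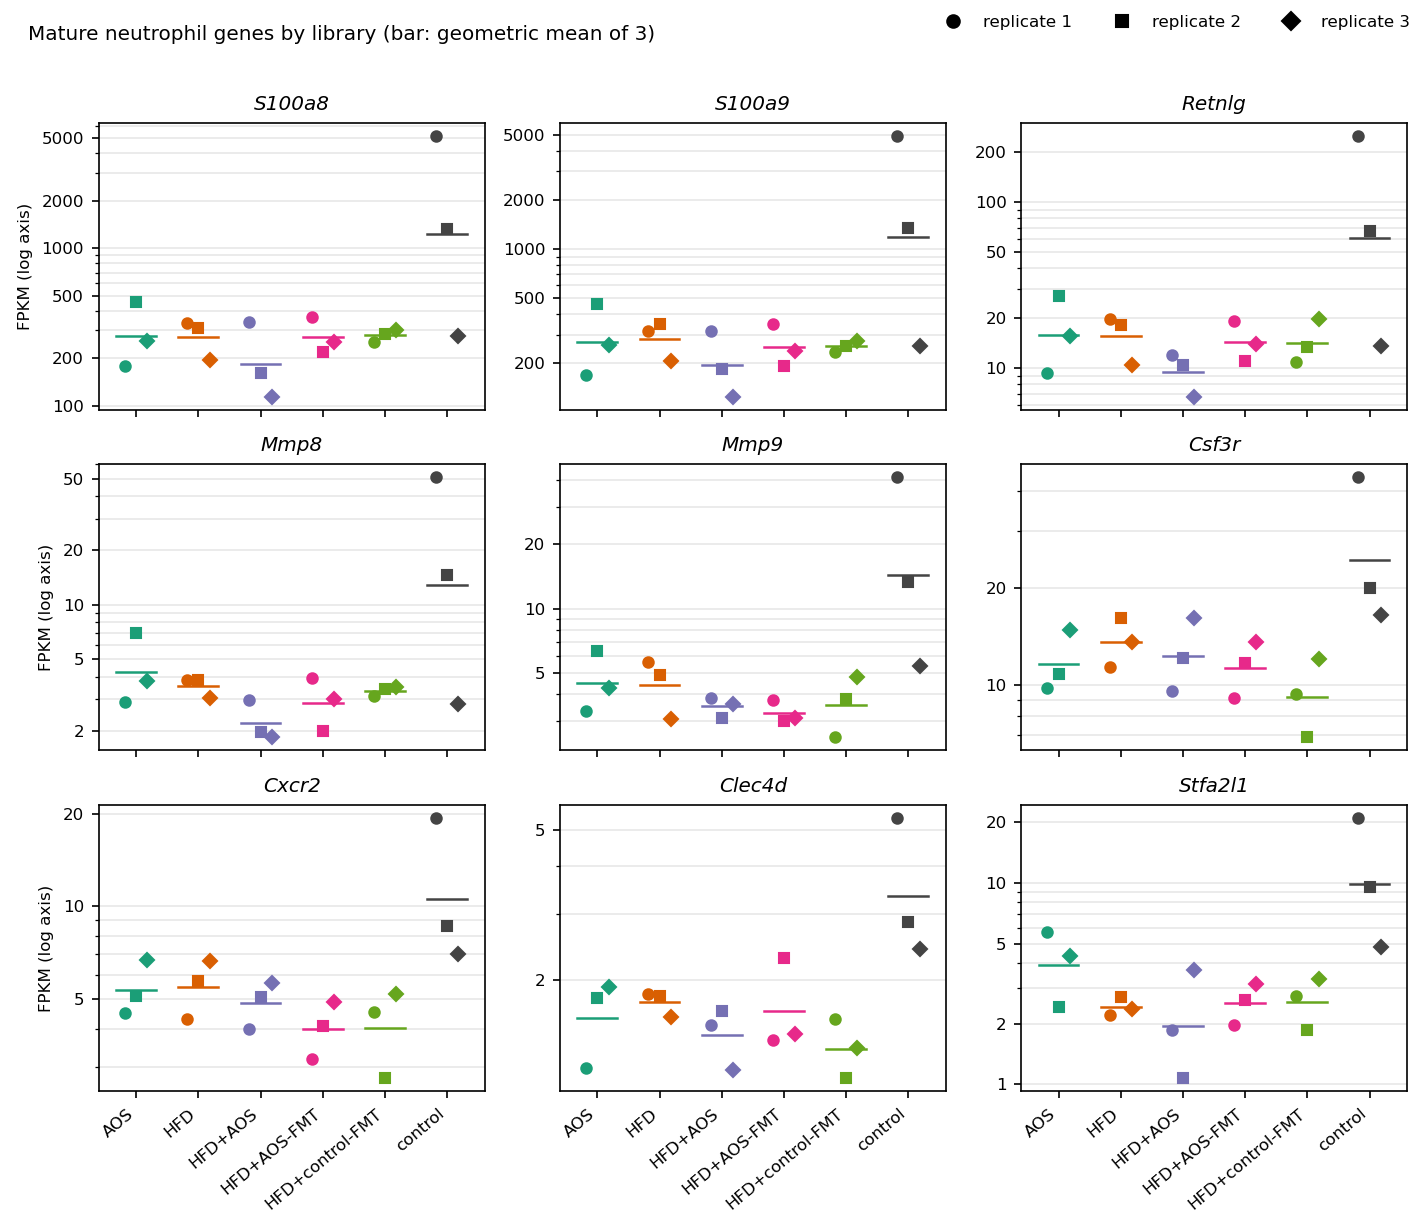
FPKM of each of the 9 genes (log axes, 1 panel a gene) in the 3 libraries of each group, with a bar at the geometric mean; marker shape gives the replicate number. Control 1 and control 2 lie above every treated library in each panel, while control 3 falls within the range of the 15 treated libraries for S100a8, S100a9, Retnlg, Mmp8, Mmp9 and Stfa2l1.

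S100a8 and S100a9 had the highest FPKM of the 9 genes and the widest spread among controls. S100a8 stood at 177, 455 and 258 FPKM in the AOS libraries, 332, 312 and 194 in HFD, 341, 160 and 114 in HFD+AOS, 364, 218 and 252 in HFD+AOS-FMT, and 254, 285 and 302 in HFD+control-FMT, against 5154, 1315 and 276 in the control libraries. Control 1 was therefore 20.0 times the median of the 15 treated libraries and control 2 was 5.10 times that median, while control 3 was 1.07 times it. By group, S100a8 averaged 279 ± 75.0 FPKM in HFD and 2248 ± 2569 FPKM in control spleens (SD, n = 3 each), so the SD of the control group exceeded its mean. Control 1 alone held 47.9% of the S100a8 signal summed over the 18 libraries.

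S100a9 followed its partner closely in every library. It ranged from 125 FPKM in HFD+AOS 3 to 459 FPKM in AOS 2 among treated libraries, against 4936, 1355 and 254 FPKM in the control libraries. The ratio of S100a8 to S100a9 stayed between 0.863 and 1.12 in all 18 libraries, control 1 included at 1.04. The genes are neighbours on chromosome 3 of GRCm38.p6: S100a8 spans chr3:90669071-90670034 on the plus strand and S100a9 spans chr3:90692630-90695721 on the minus strand, with 22595 bases between them. Their upstream sequences are shown because these genes moved together over the whole range. The 120 bases before each RefSeq transcription start follow, 5′ to 3′ on the gene's own strand (chr3:90668951-90669070 and chr3:90695722-90695841, GRCm38.p6). Capitals mark matches on either strand to TATAAA, which places the start of transcription in some promoters. They also mark TTNNGNAA, a form of the C/EBP site in which N is any base. The core of the PU.1 site was searched as GAGGAA, and a match on the minus strand is printed as its reverse complement.
S100a8: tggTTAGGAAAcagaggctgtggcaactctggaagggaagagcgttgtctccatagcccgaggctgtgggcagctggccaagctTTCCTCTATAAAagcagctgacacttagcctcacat
S100a9: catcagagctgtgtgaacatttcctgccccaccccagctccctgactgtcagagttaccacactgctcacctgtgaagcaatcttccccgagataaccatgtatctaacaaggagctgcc
In S100a8 a PU.1 match on the minus strand at 36 to 31 bases before the start abuts the TATAAA match at 30 to 25 bases, without overlap. In the 250 bases before the start, S100a9 held 2 C/EBP-form matches, both outside the stretch printed here, and no TATAAA or PU.1 match.

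Retnlg, Mmp8 and Mmp9 showed the same order of control libraries. Retnlg stood at 9.40, 27.1 and 15.6 FPKM in AOS, 19.6, 18.2 and 10.5 in HFD, 12.02, 10.5 and 6.74 in HFD+AOS, 19.1, 11.1 and 13.9 in HFD+AOS-FMT, and 10.9, 13.4 and 19.7 in HFD+control-FMT, against 250, 66.7 and 13.5 FPKM in control. The collagenase gene Mmp8 had 2.91, 6.96 and 3.79 FPKM in AOS, 3.84, 3.85 and 3.06 in HFD, 2.97, 1.98 and 1.84 in HFD+AOS, 3.95, 2.00 and 3.00 in HFD+AOS-FMT, and 3.11, 3.43 and 3.51 in HFD+control-FMT, against 51.1, 14.7 and 2.82 in control. Control 3 was below 12 of the 15 treated libraries for Mmp8 and near their median for Retnlg. Mmp9 ranged from 2.51 to 6.34 FPKM over the treated libraries, against 41.3, 13.4 and 5.38 FPKM in control, and here control 3 was above 13 of the 15.

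The upstream sequences of Retnlg and Mmp8 are shown beside those of the calprotectin genes because these 4 genes varied together across libraries, as described further on (chr16:48872488-48872607 and chr9:7558309-7558428, both on the plus strand of GRCm38.p6, with capitals as before).
Retnlg: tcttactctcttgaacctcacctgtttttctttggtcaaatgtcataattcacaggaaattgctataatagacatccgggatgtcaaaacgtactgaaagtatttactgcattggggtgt
Mmp8: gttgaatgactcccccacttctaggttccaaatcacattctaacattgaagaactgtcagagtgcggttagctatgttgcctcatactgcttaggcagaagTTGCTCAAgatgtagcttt
The Mmp8 stretch holds a C/EBP-form match read on the minus strand, at 19 to 12 bases before the start. The Retnlg stretch holds none of the searched letters, and its 1 C/EBP-form match lies at 246 to 239 bases. Retnlg spans chr16:48872608-48874498, Mmp8 chr9:7558429-7568486 and Mmp9 chr2:164940326-164955850.

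The receptor genes Csf3r and Cxcr2 moved over a narrower range, and control 3 was no longer among the treated libraries. Csf3r stood at 9.80, 10.8 and 14.8 FPKM in AOS, 11.3, 16.2 and 13.6 in HFD, 9.61, 12.1 and 16.1 in HFD+AOS, 9.11, 11.7 and 13.6 in HFD+AOS-FMT, and 9.38, 6.87 and 12.02 in HFD+control-FMT, against 44.2, 20.0 and 16.5 in control. Cxcr2 ranged from 2.76 to 6.68 FPKM over the 15 treated libraries, against 19.4, 8.65 and 7.01 FPKM in the control libraries. All 3 control libraries were thus above all treated ones for both receptors, yet control 3 was only 1.02 times the highest treated library for Csf3r and 1.05 times for Cxcr2. The ratio of Csf3r to Cxcr2 was 2.05 to 2.86 over the 18 libraries. The ratio of S100a8 to Csf3r, by contrast, was 7.11 to 41.9 in treated libraries, against 117, 65.6 and 16.7 in control 1, control 2 and control 3.

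The upstream stretches of the receptor genes are shown for comparison with the first set, since Csf3r and Cxcr2 varied together but apart from it (chr4:126024539-126024658 and chr1:74153874-74153993, both on the plus strand of GRCm38.p6). For Csf3r the RefSeq start used lies inside the span of the gene, chr4:126023441-126044975, and Cxcr2 spans chr1:74153994-74161246.
Csf3r: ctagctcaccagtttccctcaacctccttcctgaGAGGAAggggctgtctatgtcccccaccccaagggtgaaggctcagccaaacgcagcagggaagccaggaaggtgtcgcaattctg
Cxcr2: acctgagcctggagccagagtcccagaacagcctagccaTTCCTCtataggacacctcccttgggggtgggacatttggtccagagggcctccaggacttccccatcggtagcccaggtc
Each stretch holds 1 PU.1 match, on the plus strand at 86 to 81 bases before the start in Csf3r and on the minus strand at 81 to 76 bases in Cxcr2. Neither gene had a C/EBP-form or TATAAA match in the 250 bases searched. Counted over the 8 genes with an upstream sequence, leaving out Mmp9, the C/EBP form was present in 6, PU.1 in 6 and TATAAA in 1. Among 32851 mouse windows of the same length, 36.8% held the C/EBP form, 23.3% the PU.1 core and 12.4% TATAAA. These matches describe letters only, and binding was not measured.

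Clec4d, at chr6:123262107-123275268, had the lowest FPKM in control spleens of the 9 genes, and its control libraries stood apart as they did for the receptors. It stood at 1.17, 1.79 and 1.92 FPKM in AOS, 1.84, 1.82 and 1.60 in HFD, 1.52, 1.66 and 1.16 in HFD+AOS, 1.39, 2.29 and 1.44 in HFD+AOS-FMT, and 1.58, 1.10 and 1.32 in HFD+control-FMT, against 5.37, 2.85 and 2.42 FPKM in control. All 3 control libraries were above all treated ones, control 3 by 1.06 times over the highest.

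Stfa2l1, at chr16:36156811-36161948, stood highest in AOS among the treated groups by mean log2 level. It had 5.70, 2.43 and 4.36 FPKM in AOS, 2.20, 2.70 and 2.37 in HFD, 1.86, 1.07 and 3.68 in HFD+AOS, 1.96, 2.62 and 3.16 in HFD+AOS-FMT, and 2.76, 1.86 and 3.33 in HFD+control-FMT, against 21.1, 9.58 and 4.78 in control. Only AOS 1 exceeded control 3 among the treated libraries. Stefin A genes are related in sequence. Of the 50-base windows of the annotated Stfa2l1 transcript, 24.6% also occur in Stfa2 or Gm49652. Reads of Stfa2l1 may thus be shared with these 2 genes, and its values are uncertain to that extent. Csf3r shared 10.5% and Cxcr2 4.01% of such windows with other genes, and the other 6 genes shared none.

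Tested against control, the 9 genes were lower in each treated group with few calls. In HFD spleens the log2 fold changes ran from -2.18 for S100a8 to -0.67 for Clec4d, with a median of -1.68, against a median of 0.101 over all genes tested. Stfa2l1 was the 1 gene of 9 called, with a log2 fold change of -1.69 (SE 0.39, 95% interval -2.53 to -0.86, adjusted p = 0.0452), where 2.75% of all genes were called. The other 8 genes had adjusted p-values of 0.0634 to 0.121. All 9 had an unadjusted p under 0.05, as did 28.6% of all genes. The Stfa2l1 call held in 8 of 25 alternative settings, and ended when control 1, control 2, any AOS or HFD+AOS-FMT library, HFD 2, HFD 3, HFD+AOS 2, HFD+control-FMT 1 or HFD+control-FMT 2 was left out (adjusted p over all settings 0.00483 to 0.69). S100a8 had an SE of 0.78 and a 95% interval of -3.86 to -0.50.

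In AOS spleens the median of the 9 genes was -1.46 (all genes 0.046), and limma called 0 of the 9, with adjusted p-values of 0.135 to 0.285, and 0% of all genes. At an unadjusted p under 0.05 it named all 9, beside 15.4% of all genes. In HFD+AOS spleens the median was -1.87 (all genes 0.045) and 2 genes were called, with 2.09% of all genes called: Stfa2l1 at -1.87 (SE 0.39, adjusted p = 0.0264) and Clec4d at -0.84 (SE 0.20, adjusted p = 0.0407). The Stfa2l1 call there held in 19 of 25 alternative settings, and the Clec4d call in only 11 of the 24 that tested it. HFD+AOS-FMT gave a median of -1.88 (all genes 0.024) with 0 of the 9 and 0% of all genes called, although all 9 had an unadjusted p under 0.05, as did 11.6% of all genes.

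The most calls came with HFD+control-FMT, where 5 of the 9 genes passed, beside 5.13% of all genes. Clec4d fell by 0.91 on the log2 scale (SE 0.20, adjusted p = 0.0272), Csf3r by 1.32 (SE 0.30, adjusted p = 0.0308) and Cxcr2 by 1.21 (SE 0.28, adjusted p = 0.0331). Stfa2l1 fell by 1.62 (SE 0.39, adjusted p = 0.0354) and Mmp9 by 1.77 (SE 0.46, adjusted p = 0.0439). The Mmp9 call in HFD+control-FMT held in only 8 of 25 alternative settings. The calls of Csf3r and Cxcr2 held in 20 of 25 each and that of Stfa2l1 in 18 of 25. Clec4d was called in 19 of the 24 settings that tested it. S100a8, S100a9, Retnlg and Mmp8 had log2 fold changes of -2.14, -2.23, -2.04 and -1.75 there, with SEs of 0.63 to 0.78 and adjusted p-values of 0.0964 to 0.108. These 5 comparisons share the control libraries and are not independent of each other. The F test over the 6 groups called 0 of the 9 genes, with 0.116% of all genes called, and the lowest adjusted p was 0.0916 for Stfa2l1; 7 of the 9 had an unadjusted p under 0.05, as did 22.0% of all genes.

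**Figure D2:**
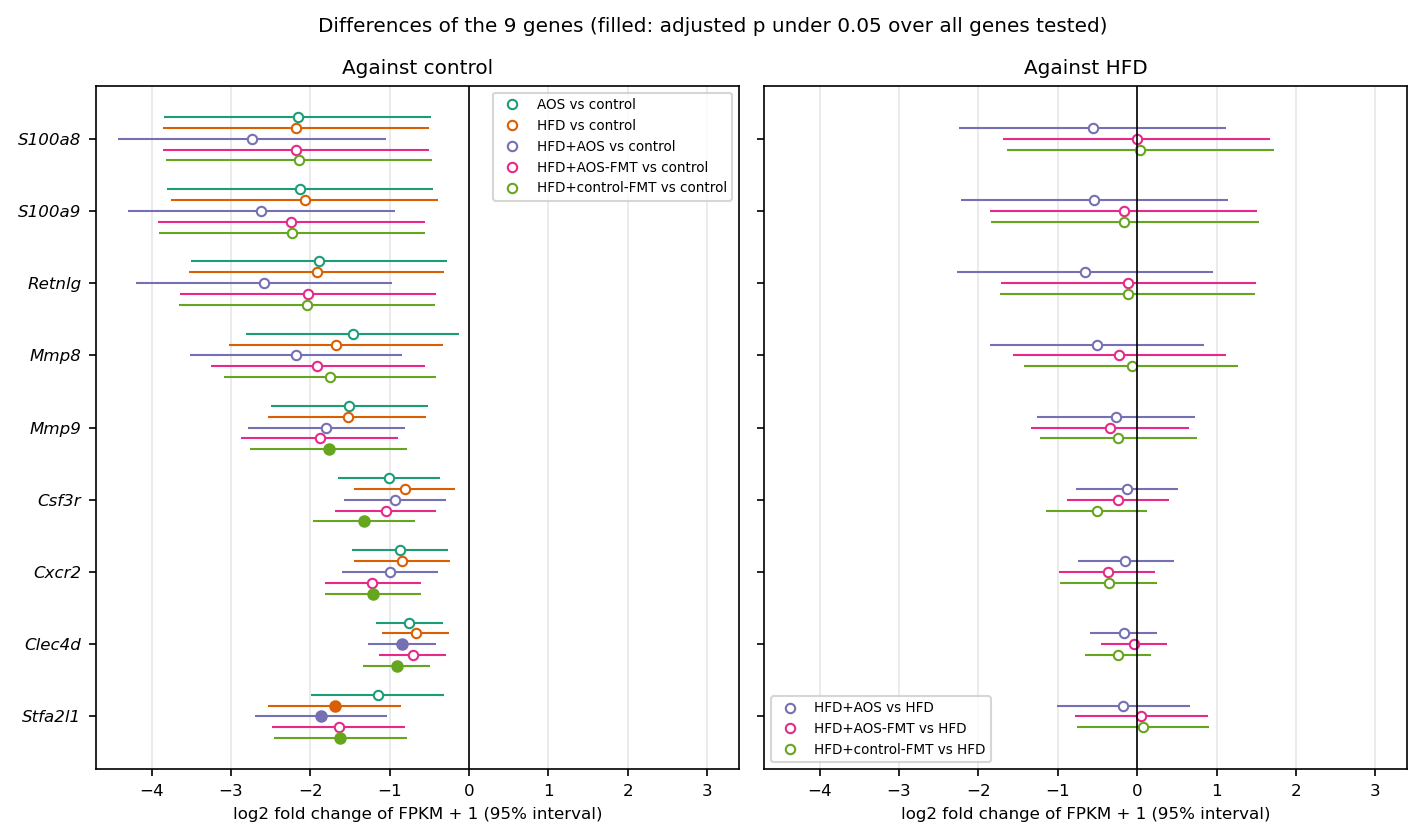
Log2 fold change of FPKM + 1 with its 95% interval for each of the 9 genes, for each treated group against control (left) and for each treated diet group against HFD (right); filled points have an adjusted p under 0.05. All intervals against control lie below 0 and 8 points are filled, while all intervals against HFD include 0.

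Separation of the groups by their ranges gave a like picture. In HFD against control, 4 genes (Csf3r, Cxcr2, Clec4d and Stfa2l1) had every treated library below every control library, which 5.44% of all genes tested did. The count was 3 in AOS (background 5.1%), 6 in HFD+AOS (4.78%), 5 in HFD+AOS-FMT (5.79%) and 5 in HFD+control-FMT (8.29%). Csf3r, Cxcr2 and Clec4d were among them in all 5 comparisons. For S100a8 and S100a9 the groups overlapped in all 5, with control 3 inside the range of each treated group. For Mmp8 they also overlapped in all 5, with control 3 below every AOS, HFD and HFD+control-FMT library and inside the range of the other treated groups.

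How far the control libraries carried these differences was measured by leaving them out. Without control 3, all 9 genes were called in HFD, HFD+AOS, HFD+AOS-FMT and HFD+control-FMT and 8 in AOS, and the median log2 fold changes were -2.18, -2.45, -2.53, -2.42 and -2.16 in that order of groups. The background rose too, with 29.3%, 10.2%, 4.62%, 23.8% and 2.33% of all genes called, in the same order. Without control 1, limma called 0 of the 9 in each of the 5 comparisons and 0% to 0.0923% of all genes, and the medians lay between -1.26 and -0.65. Without control 2, 3 genes were called in HFD+control-FMT, beside 3.69% of all genes, and 0 in the others, where 0.225% (HFD), 0.116% (AOS), 1.06% (HFD+AOS) and 0% (HFD+AOS-FMT) of all genes were called. In these 3 settings all 9 genes stayed lower than control in every treated group.

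With control 3 as the only control library, a setting chosen after the data were seen, the direction of the genes differed by group. The genes lower than control 3 were 6 in HFD, 6 in AOS, 9 in HFD+AOS, 7 in HFD+AOS-FMT and 5 in HFD+control-FMT. S100a8 differed from it by -0.02 (SE 0.58) in HFD and by 0.02 (SE 0.58) in HFD+control-FMT, and S100a9, Retnlg and Mmp8 were 0.16, 0.19 and 0.26 higher in HFD than in that library. Stfa2l1 remained at -0.76 (SE 0.40), and Csf3r, Cxcr2, Clec4d and Mmp9 at -0.26, -0.31, -0.31 and -0.24 in HFD. Only the size of each difference is read from this setting. This fit assumes that a lone control library varies as the other groups do.

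**Figure D3:**
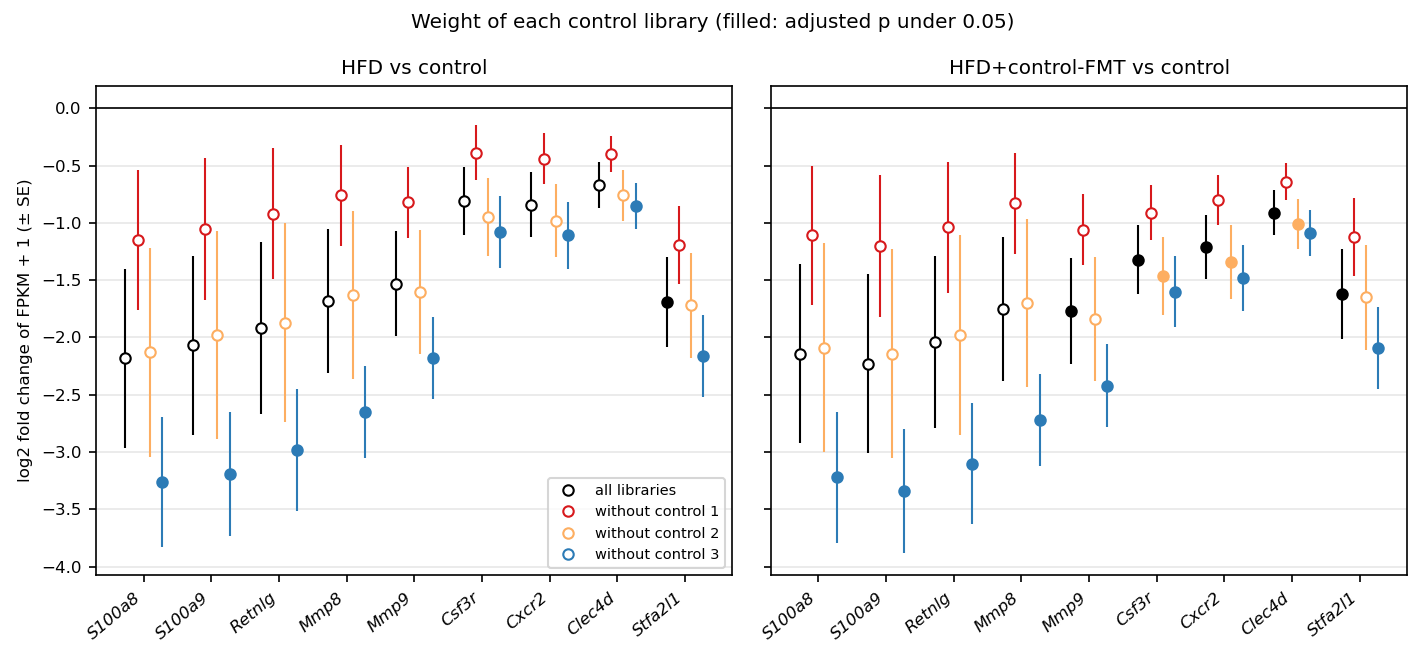
Log2 fold change of FPKM + 1 (± SE) of each gene in HFD (left) and HFD+control-FMT (right) against control, with all libraries and with each control library left out in turn; filled points have an adjusted p under 0.05. Leaving out control 3 moves all 9 genes down and fills all points, and leaving out control 1 moves all 9 towards 0 and fills none.

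Among spleens of mice on the diet, limma called 0 of the 9 genes in any comparison. In HFD+AOS against HFD all 9 genes were lower, as were 58.1% of all genes, with a median of -0.27 against -0.034 over all genes. Limma called 0 of the 9 and 0% of all genes there. Retnlg had the largest difference, -0.66 (SE 0.75, 95% interval -2.27 to 0.95, adjusted p = 0.690). Mmp8 was lower in all 3 HFD+AOS libraries (1.84 to 2.97 FPKM) than in the HFD libraries (3.06 to 3.85 FPKM), the 1 gene of the 9 with separate ranges, where 9.57% of all genes separated that way; its difference was -0.50 (SE 0.63, adjusted p = 0.720). Set against the HFD library of the same number, the HFD+AOS library was lower in 3 of 3 pairs for 5 genes (S100a9, Cxcr2, Clec4d, Retnlg and Mmp8) and in 2 of 3 pairs for the other 4. The share of all genes lower in every pair was not counted, and the labels do not say what the numbers share. With the replicate number as a block, limma called 0 of the 9 (adjusted p 0.649 to 0.857) and 0.254% of all genes, and Retnlg stood at -0.66 (SE 0.75, adjusted p = 0.651). With only HFD+AOS and HFD in the fit, Mmp8 had an SE of 0.16 (unadjusted p = 0.0133, adjusted p = 0.361 by limma). HFD+AOS 3 held the lowest value of all 18 libraries for S100a8, S100a9, Retnlg and Mmp8.

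For HFD+AOS-FMT against HFD, the contrast nearest to the study's title, 8 of the 9 genes were lower, as were 67.5% of all genes, with a median of -0.17 against -0.068 over all genes. Limma called 0 of the 9 genes and 0% of all genes. With an unadjusted p under 0.05 there were 0 of the 9, beside 13.6% of all genes. S100a8 averaged 278 ± 76.3 FPKM in HFD+AOS-FMT and 279 ± 75.0 FPKM in HFD (SD, n = 3 each), a log2 difference that rounds to 0.00 with a 95% interval of -1.69 to 1.68. The error behind that interval is estimated from all 18 libraries, control included. The log2 SD of S100a8 was 0.38 in HFD+AOS-FMT and 0.43 in HFD, against 2.11 in control. With only HFD+AOS-FMT and HFD in the fit, the interval was -0.67 to 0.66. Cxcr2 differed most, by -0.37 (SE 0.28, adjusted p = 0.557).

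HFD+control-FMT against HFD gave a median of -0.16 (all genes -0.017), with 0 of the 9 genes and 0.0154% of all genes called. Csf3r differed most, at -0.51 (SE 0.30, unadjusted p = 0.108 by limma). Clec4d was the 1 gene with separate ranges, 1.10 to 1.58 FPKM in HFD+control-FMT and 1.60 to 1.84 FPKM in HFD, as 5.59% of all genes were. Set against each other, HFD+AOS-FMT and HFD+control-FMT differed by a median of -0.01 over the 9 genes, with 0 of the 9 and 0.00771% of all genes called. Csf3r, at 0.27 (SE 0.30, 95% interval -0.37 to 0.91), was furthest from 0 there. In these 4 comparisons within the diet 0 of the 9 genes reached an unadjusted p under 0.05 with all groups in the fit. Of all genes tested, 15% reached it in HFD+AOS against HFD and 13.6% in HFD+AOS-FMT against HFD. The share was 4.63% in HFD+control-FMT against HFD and 10.5% in HFD+AOS-FMT against HFD+control-FMT. With only the groups compared, Csf3r reached it in HFD+control-FMT against HFD (unadjusted p = 0.0365, adjusted p = 0.933 by limma), as did Mmp8 in HFD+AOS against HFD. The share of all genes reaching it in these smaller fits is not given here.

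The difference between AOS dosing on the diet and off it, tested as an interaction, was positive for all 9 genes, with a median of 0.98. Over all genes the median was -0.091 and 65.2% were negative. Limma called 0 of the 9 and 0% of all genes. Csf3r came nearest at 0.89 (SE 0.42, adjusted p = 0.323), and 0 of the 9 had an unadjusted p under 0.05, beside 15.9% of all genes. The control libraries enter this contrast: with control 3 as the only one, its median was -0.06. The control group had the highest mean log2 level for all 9 genes, and HFD+AOS had the lowest for 5 of them (S100a8, S100a9, Stfa2l1, Retnlg and Mmp8). For each of these 5 genes the HFD+AOS libraries overlapped in range with those of the next lowest group.

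The 9 genes varied together in parts. Over the 15 treated libraries, where the high control libraries cannot set the relation, 10 of 36 pairs of genes correlated at an adjusted p under 0.05 (Pearson, 100000 permutations, with 1e-05 the smallest p they can give). S100a8 and S100a9 had r = 0.97 (rho = 0.96), S100a8 and Retnlg r = 0.89 (rho = 0.86), S100a8 and Mmp8 r = 0.84 (rho = 0.84), with adjusted permutation p-values of 0.00012, 0.00012 and 0.001. Without the 2 libraries farthest from the median of S100a8, these stood at 0.95, 0.79 and 0.73. Mmp9 joined the set more loosely, with r = 0.78 to Retnlg (rho = 0.73, adjusted permutation p = 0.0028), 0.73 to Mmp8 and 0.61 to S100a8 (adjusted permutation p = 0.053, against 0.02 for rho = 0.70).

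Csf3r and Cxcr2 formed the other pair, with r = 0.86 (rho = 0.85, adjusted permutation p = 0.00036, and r = 0.78 without the 2 farthest libraries). Neither receptor's relation to S100a8 passed the threshold: r was -0.37 for Csf3r and -0.33 for Cxcr2, with adjusted permutation p-values of 0.48 and 0.50. Clec4d and Stfa2l1 had no pair past the threshold, and their r ranged from -0.30 to 0.38 over all their pairs. The division into 5 secreted and granule genes and the receptors was drawn after these values were seen. The 15 libraries come from 5 groups and share their normalisation within the table, and the depth behind the low genes is unknown.

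**Figure D4:**
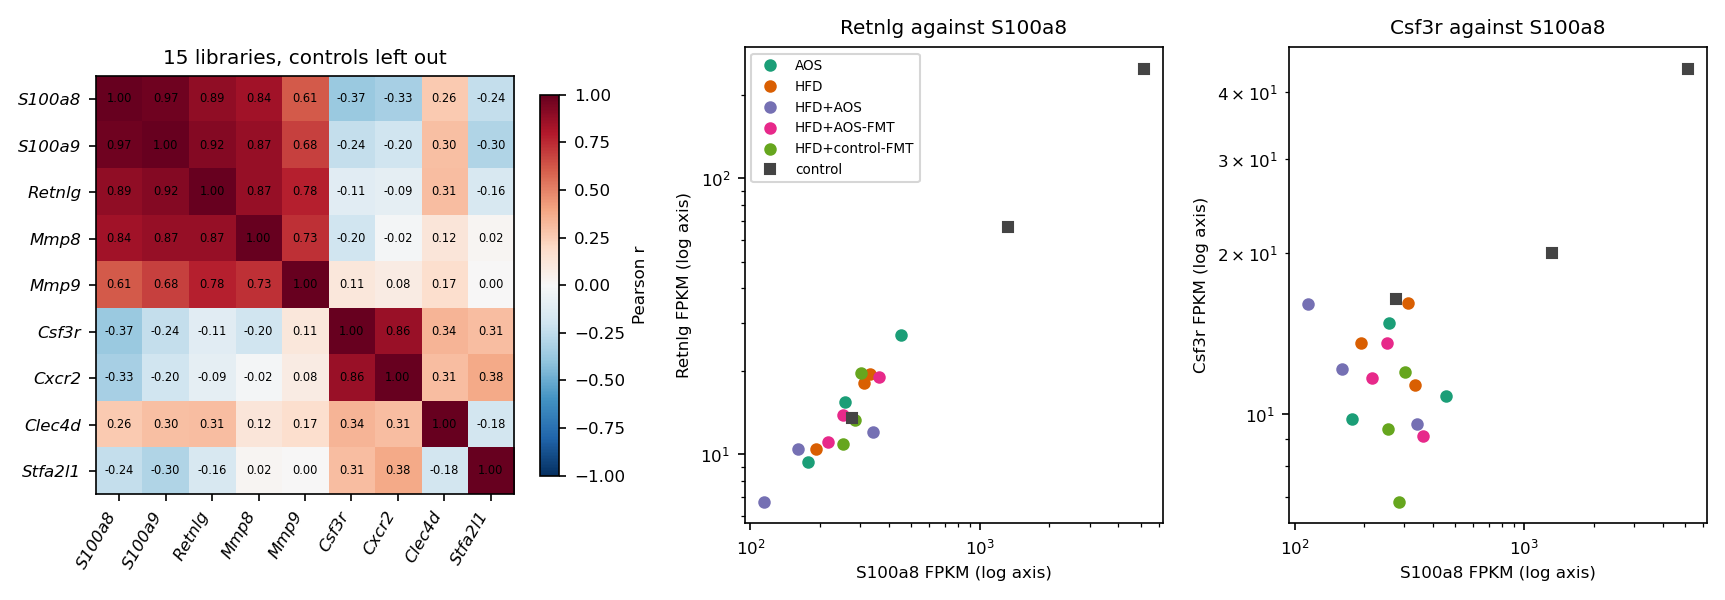
Left, Pearson r between the 9 genes over the 15 treated libraries on the log2(FPKM + 1) scale; middle and right, Retnlg and Csf3r FPKM against S100a8 FPKM (log axes) in all 18 libraries, squares for control. Retnlg follows S100a8 among treated libraries (r = 0.89) as well as in control 1 and control 2, whereas Csf3r has r = -0.37 with it there.

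A list of 14 genes of neutrophil precursors, which load the primary and secondary granules in the marrow, was set against the 9 genes in the same way. Over the 15 treated libraries the mean of that list correlated with S100a8 at r = 0.96 (rho = 0.97), with S100a9 at 0.93 and with Retnlg at 0.85, and the adjusted permutation p-values were 0.00013, 0.00013 and 0.00063 over 27 relations. It stood at r = 0.76 with Mmp8 (adjusted permutation p = 0.0093). With Mmp9 it was 0.59 (adjusted permutation p = 0.11, against 0.027 for rho = 0.70). With Csf3r it was -0.44 and with Cxcr2 -0.37, neither past the threshold (adjusted permutation p = 0.35 and 0.42). The precursor list itself lay at 2.65 to 4.15 on the mean log2(FPKM + 1) scale in treated libraries, against 7.21, 5.53 and 3.39 in control 1, control 2 and control 3. All 14 of its genes were lower in every treated group than in control, and limma called 0 of them in any of the 5 comparisons, while 13 had an unadjusted p under 0.05 in HFD, as did 28.6% of all genes. Among them Ltf, the granule protein lactoferrin, had 35.1, 27.8 and 13.8 FPKM in HFD, against 397, 116 and 20.1 in control, and Olfm4, which marks a subset of neutrophils, had 1.2, 1.12 and 0.78 FPKM in HFD, against 12.02, 3.37 and 1.06 in control (log2 fold change -1.27, SE 0.44, adjusted p = 0.0899 by limma). What part immature cells had in the levels of the 9 genes was not tested.

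Of 20 tested genes on a list of other mature neutrophil genes, 17 were lower in HFD than in control with a median of -0.40, and limma called 0, with 10 at an unadjusted p under 0.05, beside 28.6% of all genes. Ly6g, the surface antigen used to identify mouse neutrophils, had 4.13, 4.35 and 2.10 FPKM in HFD, against 41.3, 12.3 and 3.61 in control (log2 fold change -1.64, SE 0.57, adjusted p = 0.0913). Trem3, a receptor of myeloid cells, had 2.75, 1.93 and 2.13 FPKM in HFD, against 21.5, 5.83 and 2.61 in control (-1.34, SE 0.45, adjusted p = 0.0848). Both repeated the order of control libraries seen for S100a8.

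The genes whose levels were most like the mean of the 9 over all 18 libraries, by Spearman's rho, were 4930438A08Rik (rho = 0.88, Pearson r = 0.99), Ifitm6 (0.83 and 0.98), Ly6g (0.83 and 0.97), Lcn2 (0.81 and 0.97), Asap2 (0.80 and 0.68), Anxa1 (0.80 and 0.98), Dach1 (0.80 and 0.95) and Rprd1b (0.79 and 0.73). These values are descriptions, and they include control 1 and control 2. Over the 15 treated libraries alone rho was 0.67 to 0.82 for the 8 genes. Anxa1, which encodes annexin A1, a protein that restrains neutrophil movement, stood at 37.4 to 58.9 FPKM in treated libraries, against 330, 112 and 48.3 FPKM in control. Lcn2, the iron-scavenging granule protein lipocalin 2, stood at 16.7 to 82.4 FPKM in treated libraries, against 952, 259 and 42.1 in control.

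Few genes that act on or with the 9 were called. A list headed as ligands of Cxcr2 and Csf3r also held the platelet gene Pf4. Of the 8 genes on that list 5 could be tested, and limma called 0 in each comparison with control. In HFD 1 of them had an unadjusted p under 0.05. Ppbp, the platelet chemokine that binds Cxcr2, had a log2 fold change of -0.64 in HFD (SE 0.25, adjusted p = 0.121). None of 6 receptor genes for S100A8/S100A9 was called (median -0.14 in HFD), none of 8 genes of the C-type lectin cluster and its adaptors (median 0.18), none of 4 tested inhibitors of metalloproteinases (median -0.02) and none of 8 other metalloproteinases (median 0.09). At an unadjusted p under 0.05 in HFD these 4 lists held 1, 2, 1 and 0 genes, in that order, where 28.6% of all genes passed. Card9, the adaptor downstream of such lectins, had a log2 fold change of -0.64 in HFD (SE 0.20, adjusted p = 0.0744), and Timp3, a tissue inhibitor of metalloproteinases, -0.30 (SE 0.13, adjusted p = 0.148).

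Among the stefins and cystatins Cstb and Cst3, which are broadly expressed, had log2 fold changes of 0.49 (SE 0.13, adjusted p = 0.0511) and 0.41 (SE 0.11, adjusted p = 0.0508) in HFD, neither called. Gm5483 was called lower in HFD+control-FMT (-1.70, SE 0.42, adjusted p = 0.0372), as it was in 13 of the 24 alternative settings that tested it. It stood at 0.0, 0.0 and 0.28 FPKM there, against 8.32, 1.55 and 0.84 in control, so this call rests on very low values. Ctsh, a cathepsin that stefins can inhibit, was called higher in HFD, with 138, 149 and 158 FPKM, against 102, 109 and 133 FPKM in control (log2 fold change 0.38, SE 0.09, adjusted p = 0.0452). That call held in 8 of 25 alternative settings and ended in 17, among them no filter, median-ratio scaling and leaving out control 1 or control 2 (adjusted p 0.00436 to 0.724). Retnla and Retn, relatives of Retnlg, had 0 calls and 0 unadjusted p-values under 0.05 against control, and control 1 was their lowest control library. Retnla stood at 19.8, 11.6 and 13.2 FPKM in HFD, against 4.79, 17.5 and 12.7 in control. Of 9 transcription factors of the neutrophil lineage limma called Cebpa, which rose in HFD+control-FMT by 0.57 (SE 0.12, adjusted p = 0.0272, called in 20 of 25 alternative settings), and 0 in HFD (median 0.01, with 4 at an unadjusted p under 0.05, beside 28.6% of all genes).

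Genes of some other cell types also set control libraries apart, control 1 most of all. For platelet and megakaryocyte genes control 3, at 5.49 on the mean log2(FPKM + 1) scale, lay inside the treated range of 5.07 to 5.78. Erythroid genes were lower in HFD for 10 of 10 genes, 6 of them called, where 2.75% of all genes were called. Their summed levels were 710 to 1861 FPKM in the treated libraries, against 1764 to 2808 FPKM in control. Trim10, which acts in red cell maturation, fell by 1.52 in HFD (SE 0.29, adjusted p = 0.0443 by limma). Their mean had r from -0.35 with Cxcr2 to 0.28 with S100a8 over the 15 treated libraries, and none of the 9 relations passed the threshold (lowest adjusted permutation p 0.42). T cell genes were higher in HFD for 9 of 9, 5 of them called beside the same 2.75% of all genes, and their sum was 330 to 508 FPKM in treated libraries, against 193 to 335 FPKM in control. The counts of 6 erythroid and 5 T cell genes fell to 0 in 17 of 25 alternative settings, the same settings that ended the Ctsh call, and in 15 of them limma called 0 of all genes. Without control 3 they became 10 and 8, beside 29.3% of all genes. In HFD+control-FMT 6 erythroid and 6 T cell genes were called, beside 5.13% of all genes, and 0 of either with only the groups compared. Platelet and megakaryocyte genes were lower for 8 of 8 with 0 called and 7 at an unadjusted p under 0.05 (28.6% of all genes), and their sum was 620 to 1097 FPKM in treated libraries, against 815 to 2033 in control. Haemoglobin genes took 10.8% to 28.1% of the FPKM sum in treated libraries, against 34.3%, 27.1% and 21.5% in control 1, control 2 and control 3. No erythroid, T cell or platelet gene list had a defining gene at 0 in all libraries of a group, and the part of these cells in the neutrophil values was not tested.

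Monocyte genes were at 229 to 584 FPKM summed over 10 genes in the treated libraries, against 253 to 357 FPKM in control, and 0 of the 10 were called in HFD (median 0.16, with 3 at an unadjusted p under 0.05), while Ms4a6c, a membrane protein of monocytes, rose in HFD+control-FMT by 0.50 (SE 0.13, adjusted p = 0.0431, called in 11 of 25 alternative settings). Their list did not correlate with any of the 9 genes past the threshold over the 15 treated libraries, with r from -0.45 for Retnlg to 0.44 for Cxcr2. Eosinophil genes had a median of -0.34 in HFD with 0 of 6 called, and B cell genes were higher for 8 of 8 with 0 called (median 0.43); limma's unadjusted p was under 0.05 for 1 and 6 of them. Red pulp macrophage genes were higher for 9 of 9 in HFD with 0 called, and basophil and mast cell genes lower for 3 of 4 with 0 called, with 3 and 1 at an unadjusted p under 0.05. Over all genes tested that share was 28.6%.

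**Figure D5:**
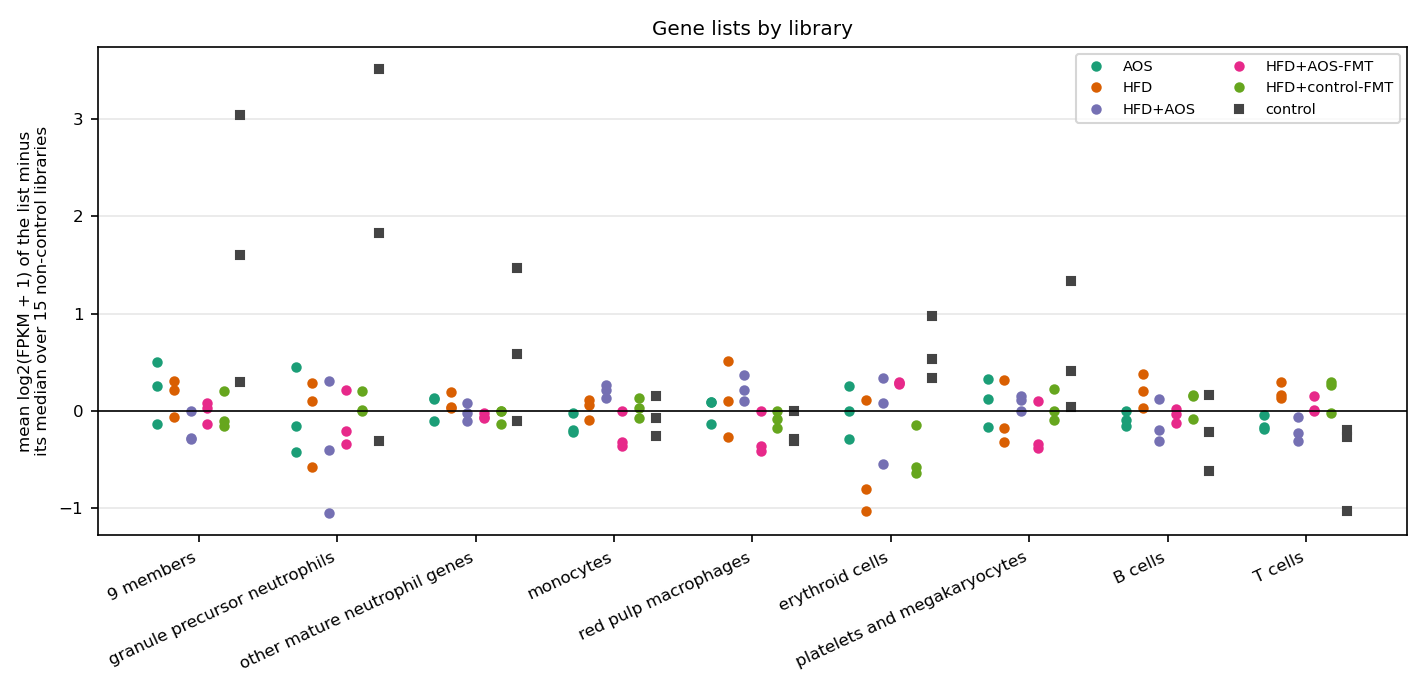
Mean log2(FPKM + 1) of the 9 genes and of cell type gene lists in each of the 18 libraries, relative to the list's median over the 15 treated libraries; squares are control libraries. Control 1 and control 2 stand highest for the 9 genes and both neutrophil lists, and control 1 stands highest for erythroid and platelet genes and lowest for T and B cell genes.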

How the data were processed

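Spleen RNA of 18 libraries was extracted with Trizol and a PureLink kit and sequenced on Illumina instruments, per the labels' protocols. Reads were aligned with Bowtie 0.12.2 to mm10, per the submitters' processing notes. The authors deposited 1 table whose values were read here as FPKM: the coefficient of variation between libraries was 0.785% for summed length-weighted values, using the 97.1% of rows whose transcript length is known, against 7.55% for plain column totals. Nothing in the sources used here names the unit, counting program, annotation or filters. Column headers were matched to the labels by group code and number.

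Log2(FPKM + 1) of the 12969 genes that reached a group mean of 1 FPKM anywhere was fitted with limma 3.58.1 under R 4.3.3, with a variance trend and robust estimation (statmod 1.5.0), over all 18 libraries, with 12 residual degrees of freedom and Benjamini-Hochberg adjustment at 0.05 within each comparison. The code was tested on simulated data. Correlations, motif searches and figures used Python 3.11.15 with matplotlib 3.10.9, numpy 2.4.6, pandas 2.3.3 and scipy 1.17.1. Gene positions and upstream sequences came from RefSeq tables for GRCm38.p6, the build also called mm10, and transcript windows from GENCODE vM21. Context genes were named from the 2 of each list with the smallest F test p, and genes most alike are the 8 with the highest rho; Gm5483 was chosen after its values were seen. The 9 genes and all lists were chosen with earlier results of these data known. Alternatives changed the pseudocount, the filter, the scaling, the samples fitted and the replicate block, and left out each library. Residuals of same-numbered libraries correlated at r = 0.236, 0.268 and 0.191 in HFD+AOS against HFD. All 3 were also above 0 in HFD against control (0.151, 0.038 and 0.36), HFD+AOS against control (0.025, 0.172 and 0.282) and HFD+AOS-FMT against control (0.065, 0.196 and 0.109). The block is given in most detail for HFD+AOS against HFD, where the lowest of the 3 values was highest. The labels do not say what the numbers share.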

Additional observations from a re-analysis of the deposited data

How the results depend on the processing

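Against control, the direction of all 9 genes in all 5 treated groups held under every setting below that was set down in the design, but the number of genes called did not. In HFD the count of 1 became 0 with no filter on low values, with median-ratio scaling and with only the groups compared, and 2 with the replicate block; in HFD+AOS the count of 2 became 1 with no filter, with a mean of at least 5 FPKM (which leaves Clec4d untested) and with median-ratio scaling, and 0 with only the groups compared; in HFD+control-FMT the count of 5 became 3 with no filter and 0 with only the groups compared. Leaving out 1 library gave 0 to 9 genes called in HFD, HFD+AOS, HFD+AOS-FMT and HFD+control-FMT and 0 to 8 in AOS and in the F test, the highest always without control 3. The medians then ranged from -2.18 to -0.82 in HFD, -2.16 to -0.65 in AOS, -2.45 to -1.26 in HFD+AOS, -2.53 to -1.03 in HFD+AOS-FMT, -2.42 to -1.04 in HFD+control-FMT and 0.47 to 1.89 for the interaction. With control 3 as the only control, added after the data were seen, the medians were -0.24 in HFD, -0.21 in AOS, -0.47 in HFD+AOS, -0.35 in HFD+AOS-FMT, -0.47 in HFD+control-FMT and -0.06, with its sign turned, for the interaction. In that setting 12 single differences turned positive: S100a9 at 0.16 in HFD, 0.10 in AOS and 0.00 in HFD+control-FMT, Retnlg at 0.19 in HFD, 0.22 in AOS, 0.08 in HFD+AOS-FMT and 0.07 in HFD+control-FMT, Mmp8 at 0.26 in HFD, 0.47 in AOS, 0.03 in HFD+AOS-FMT and 0.19 in HFD+control-FMT, and S100a8 at 0.02 in HFD+control-FMT. The cause was not tested beyond these settings. With the replicate block the count of the 9 genes called changed in no comparison other than HFD, although the genes called among all tested moved to 33 from 0 in HFD+AOS against HFD, to 1842 from 357 in HFD against control, to 1468 from 665 in HFD+control-FMT against control and to 210 from 15 in the F test. What the replicate numbers share is not known for any comparison. The genes called among all tested also fell: to 0 from 357 in HFD against control in 15 of 25 settings, among them no filter, median-ratio scaling and only the groups compared, and in 11 of the 18 that left out 1 library; in HFD+control-FMT against control to 379 from 665 with no filter, 2 with only the groups compared and 5 to 3104 with 1 library left out (12 without control 1, 5 without HFD+control-FMT 1, 12 without HFD+control-FMT 2); and in HFD+AOS against control to 207 from 271 with no filter, 145 with median-ratio scaling and 1 with only the groups compared. Within the diet, with 1 library left out, the medians of the 9 genes ranged from -0.48 to -0.20 in HFD+AOS against HFD, -0.25 to -0.02 in HFD+AOS-FMT against HFD, -0.28 to -0.03 in HFD+control-FMT against HFD and -0.18 to 0.11, with its sign turned, in HFD+AOS-FMT against HFD+control-FMT, where median-ratio scaling also turned it (0.03). Against control, the genes called among all tested in HFD+AOS were 0 to 1327 with 1 library left out (0 without HFD+AOS 2, 9 without control 1). The 3 libraries a group and the unknown depth limit what could be detected.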
